A study of Drosophila melanogaster with 9 samples.

Results

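The 7512 genes described here lay on the same side of control in both Forkhead mutants, out of 11982 genes measured in sorted mesodermal cells of Drosophila melanogaster embryos. For each gene, the mean log2 signal of 3 jumu deficiency arrays and that of 3 CHES-1-like null arrays were each set against the mean of 3 control arrays, and a gene was kept where the differences had the same sign. Of the genes kept, 4266 (35.6% of all genes) were higher in both mutants and 3246 (27.1%) were lower in both, and the other 4470 genes lay on opposite sides of control. With every array centred on its median the balance turned, with 2970 genes higher and 4441 lower in both mutants. It also turned without the dim 40% of probe sets, with 2448 genes higher and 2572 lower. The pooled change given throughout is the average of the mutant group means minus the control mean on the log2 scale, and a value after ± is its standard error (SE) from the limma fit. The members were chosen by these same differences from control, so those are given as a description, and the tests printed are those of the difference between the mutants.

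The jumu deficiency embryos were homozygous for Df(3R)Exel6157, a deficiency that the labels call null for jumu, with twi-GAL4 on 1 copy and UAS-2EGFP on the other. A deficiency can take out neighbouring genes along with the gene it is kept for. The CHES-1-like null embryos were homozygous for the null deletion Df(1)CHES-1-like1 and carried twi-GAL4 together with UAS-2EGFP. Control embryos had twi-GAL4 with UAS-2EGFP in a background without these deletions. All 3 groups therefore carried the GAL4 driver under twist control and the green fluorescent protein reporter, which marks cells with Twist activity, although only the titles of the jumu group place them on separate homologues. Embryos were collected at stage 11 to early stage 12, and fluorescent cells were sorted and hybridised as labelled total RNA, 1 sample per Affymetrix array. Whether arrays of a group came from separate collections or sorts is not stated in the labels, and p-values therefore reflect a spread between arrays that may be technical only. Each genotype is 1 group, so any other difference between the stocks cannot be told apart from the mutations.

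Forkhead proteins are transcription factors that bind DNA through a winged-helix domain. The Drosophila proteins Jumu and CHES-1-like are known for their part in the specification and division of cardiac progenitors in the embryonic mesoderm. The Twist-expressing mesoderm sampled here gives rise to the heart, the body wall and gut muscles, the fat body and the blood cells.

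Deposited log2 signals ran between 2.99 and 14.8, with array medians between 5.42 and 5.51. Arrays of a group correlated with each other at 0.998 to 0.999, jumu deficiency arrays with control arrays at 0.987 to 0.988, and CHES-1-like null arrays with control arrays at 0.991 to 0.993, over all probe sets. Jumu deficiency arrays correlated with CHES-1-like null arrays at 0.9855 to 0.9865, lower than either mutant with control. Signals of 112 odorant and gustatory receptor genes, taken as a gauge of background in these cells, had a median log2 signal of 4.20 and a 95th percentile of 5.44. Changes against a group whose mean is below this background bound are understated. The CHES-1-like probe set read 11.38, 11.61 and 11.19 in jumu deficiency cells, 3.88, 4.32 and 3.92 in CHES-1-like null cells, and 12.03, 11.97 and 12.02 in control cells. The low signal was found in the group with the CHES-1-like deletion. A second CHES-1-like probe set averaged 7.595 in jumu deficiency, 6.319 in CHES-1-like null and 8.122 in control cells. It was lowest in the CHES-1-like null group but above the background bound there, and its place relative to the deletion was not tested. The jumu probe set read 8.18, 8.21 and 7.99 in jumu deficiency cells, 10.66, 10.74 and 10.61 in CHES-1-like null cells, and 10.54, 10.46 and 10.57 in control cells. It was lower in the deficiency than in either other group, but all 3 deficiency arrays were above the background bound. That signal goes against a plain reading of the null label. Whether the probe set lies within the deleted stretch was not tested, and the group keeps its label as its name. The jumu gene is not a member, because its change in CHES-1-like null cells was 0.15. All 6 mesoderm markers measured, of 9 listed, were above the background bound, with a mean log2 signal of 10.3 on all jumu deficiency arrays, 10.1 on all CHES-1-like null arrays and 10.3 on all control arrays. The 3' signal of the actin control probe sets exceeded the 5' signal by 1.26 ± 0.035 log2 units in jumu deficiency, 0.94 ± 0.065 in CHES-1-like null and 1.04 ± 0.010 in control cells (SD, n = 3 each), and its part in the changes below was not tested.

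The changes of the genes kept were mostly small. The median pooled change was 0.14 among the genes higher in both mutants and -0.19 among those lower in both, against 0.021 over all genes. Many were dim. The mutant mean was above the background bound for 1984 of the 4266 genes higher in both mutants. The control mean was above it for 2409 of the 3246 genes lower in both. A pooled change passed the limma threshold, an adjusted p under 0.05 over all probe sets, for 1589 of the genes higher in both mutants, or 13.3% of all genes, and for 1891 of the genes lower in both, or 15.8% of all genes. These genes are said below to have risen or fallen, which does not mean that each mutant passed by itself. Because the rule used the same contrast, nothing is read from those totals. With every array centred on its median, 976 genes rose and 2307 fell, so that 29.7% of the calls were upward, against 45.7% of the calls as deposited. Each mutant passed the threshold by itself for 668 genes above control (5.58% of all genes) and 1015 genes below it (8.47%). All 6 mutant arrays lay above all 3 control arrays for 1201 genes (10.0% of all genes) and below them for 1560 (13.0%). The mutant differences share their control arrays, so that an error in a control mean moves both the same way.

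Large changes were few. A pooled change of at least 1 on the log2 scale was reached by 67 genes higher in both mutants, and in 20 of these the smaller of the mutant changes was also at least 1. The same size was reached by 90 genes lower in both mutants, and in 49 of these both mutants were at least 1 below control. The rule asks only for the same sign, so a large pooled change can come almost wholly from 1 mutant. Nach, which encodes an ion channel subunit of the pickpocket family, had a pooled change of 3.68 ± 0.054, with 7.24 in jumu deficiency cells and 0.12 in CHES-1-like null cells. Its CHES-1-like null arrays overlapped its control arrays. At the edge of the rule, Synj was just inside with a change of 0.27 in jumu deficiency and 1.6e-05 in CHES-1-like null cells. CG6015 was just inside on the lower side with -0.013 in jumu deficiency and -5.6e-05 in CHES-1-like null cells. CG11368 was just outside, with 2.5e-05 in jumu deficiency and -0.003 in CHES-1-like null cells.

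**Figure D1:**
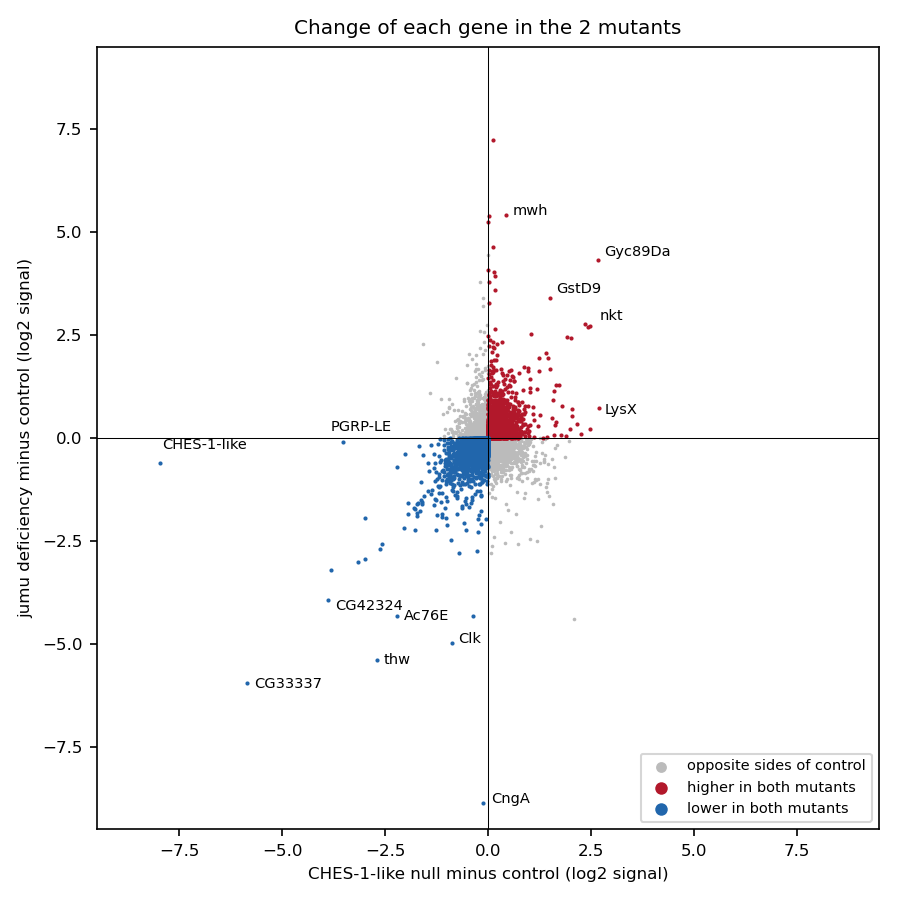
Each point is 1 of 11982 genes, with the change of CHES-1-like null cells against control on the horizontal axis and that of jumu deficiency cells on the vertical axis, both in log2 signal. Red genes (4266) were higher and blue genes (3246) lower in both mutants, grey genes (4470) lay on opposite sides, and CG33337 stands far down the diagonal at a pooled change of -5.90.

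The deepest shared loss was that of CG33337, a gene without a name beyond its annotation symbol. Its log2 signals were 4.03, 3.79 and 3.81 in jumu deficiency cells, 4.30, 3.71 and 3.97 in CHES-1-like null cells, and 9.88, 9.89 and 9.76 in control cells. Mutant arrays all sat under the background bound while control arrays were bright, with no overlap. Its pooled change was -5.90 ± 0.11, and the difference between the mutants was -0.12 (95% interval -0.42 to 0.18, limma adjusted p 0.571). CG42324 read 5.12, 5.28 and 5.28 in jumu deficiency cells, 5.16, 5.10 and 5.55 in CHES-1-like null cells, and 9.16, 9.08 and 9.20 in control cells. Control arrays were again apart from all mutant arrays. A further probe set of CG42324 had a pooled change of -2.48, with -2.33 in jumu deficiency and -2.62 in CHES-1-like null cells.

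Genes of known function stood beside these. Cyp4p2, a cytochrome P450 enzyme, read 5.27, 4.89 and 5.22 in jumu deficiency cells, 5.12, 5.24 and 5.18 in CHES-1-like null cells, and 7.90, 7.75 and 7.78 in control cells. Its mutant arrays overlapped each other and lay far below control, with a pooled change of -2.66 ± 0.081 and a mutant difference of -0.058 (95% interval -0.27 to 0.15, limma adjusted p 0.707). Both mutant means were under the background bound. Ac76E, an adenylyl cyclase that makes cyclic AMP, read 3.86, 4.06 and 4.35 in jumu deficiency cells, 6.34, 6.36 and 5.94 in CHES-1-like null cells, and 8.44, 8.40 and 8.41 in control cells. It was low in both mutants and lowest in jumu deficiency cells, where the mean was under the background bound, and its pooled change was -3.27 ± 0.12. The zona pellucida domain gene thw read 5.44, 5.68 and 5.25 in jumu deficiency cells, 8.18, 8.19 and 8.15 in CHES-1-like null cells, and 10.83, 10.95 and 10.80 in control cells. The 3 groups did not overlap, with jumu deficiency lowest, and a second probe set of thw had a pooled change of -3.78 while another, with signals at background in every group, had -0.029. Clk, which encodes the circadian transcription factor Clock, read 3.81, 4.14 and 3.83 in jumu deficiency cells, 8.04, 7.98 and 8.07 in CHES-1-like null cells, and 8.94, 8.86 and 8.93 in control cells. Most of its pooled change of -2.93 ± 0.071 lay in jumu deficiency cells.

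CngA, a subunit of a cyclic nucleotide-gated ion channel, shows how unequal a shared direction can be. Its signals were 3.35, 3.66 and 3.78 in jumu deficiency cells, 12.31, 12.37 and 12.32 in CHES-1-like null cells, and 12.43, 12.45 and 12.46 in control cells. It was near background in jumu deficiency cells only, while its CHES-1-like null arrays were -0.12 from control. A second CngA probe set was at background in all groups and had a pooled change of -0.031. Of the other leading genes that fell, CG13794 had -3.08 ± 0.077, CG13003 had -3.51 ± 0.13, boil had -2.98 ± 0.071, CG33757 had -2.57 ± 0.10, CG2233 had -2.48 ± 0.071, CG15128 had -2.35 ± 0.049 and CG7509 had -2.11 ± 0.092. Among the 15 leading lower genes, CHES-1-like included, at least 1 mutant mean was under the background bound in 12 and both were in 7, so those changes are understated.

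Gyc89Da, an atypical soluble guanylyl cyclase that makes cyclic GMP, had the largest change among the 15 leading genes that rose. It read 8.81, 8.72 and 8.74 in jumu deficiency cells, 7.02, 7.35 and 6.93 in CHES-1-like null cells, and 4.42, 4.53 and 4.34 in control cells. Control arrays were at background, CHES-1-like null arrays were well above it and jumu deficiency arrays were higher still, with a pooled change of 3.50 ± 0.088. The gene klar encodes a KASH-domain protein that positions nuclei and lipid droplets, and it read 11.03, 11.08 and 11.08 in jumu deficiency cells, 10.65, 10.69 and 10.64 in CHES-1-like null cells, and 8.67, 8.67 and 8.59 in control cells. All mutant arrays were well above control, jumu deficiency slightly more so, and the pooled change was 2.22 ± 0.036.

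GstD9, a glutathione S-transferase, read 11.27, 11.29 and 11.35 in jumu deficiency cells, 9.46, 9.36 and 9.37 in CHES-1-like null cells, and 7.89, 7.91 and 7.88 in control cells. The jumu deficiency arrays were highest and control arrays lowest, with no overlap, and the pooled change was 2.46 ± 0.038. LysX, a lysozyme, had its larger change in CHES-1-like null cells, at 5.10, 5.23 and 5.12 in jumu deficiency cells, 6.98, 7.15 and 7.17 in CHES-1-like null cells, and 4.30, 4.41 and 4.53 in control cells. Its CHES-1-like null arrays were highest and its control arrays were at background. The planar polarity gene mwh, which restricts wing hair number, read 10.32, 10.17 and 10.35 in jumu deficiency cells, 5.30, 5.22 and 5.40 in CHES-1-like null cells, and 4.96, 4.73 and 4.89 in control cells. Its rise lay mostly in jumu deficiency cells, and a second mwh probe set at background had a pooled change of 0.033.

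The remaining leading genes that rose included Ect3, a beta-galactosidase, with 1.70 ± 0.042, and Ilp7, an insulin-like peptide, with 1.59 ± 0.085. Dnaaf3, a factor in the assembly of ciliary dynein arms, had 1.88 ± 0.095, of which 3.60 was in jumu deficiency and 0.17 in CHES-1-like null cells. Genes named only by symbol were nkt with 2.60 ± 0.065, CG12885 with 2.56 ± 0.037, be with 2.56 ± 0.048, CG3526 with 2.19 ± 0.10, CG10405 with 1.78 ± 0.044, CG7878 with 1.73 ± 0.041 and CG3777 with 1.59 ± 0.054. In 7 of the 15 leading higher genes the control mean was under the background bound. A dimmer probe set of be disagreed, with -0.77 in jumu deficiency and 1.21 in CHES-1-like null cells.

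**Figure D2:**
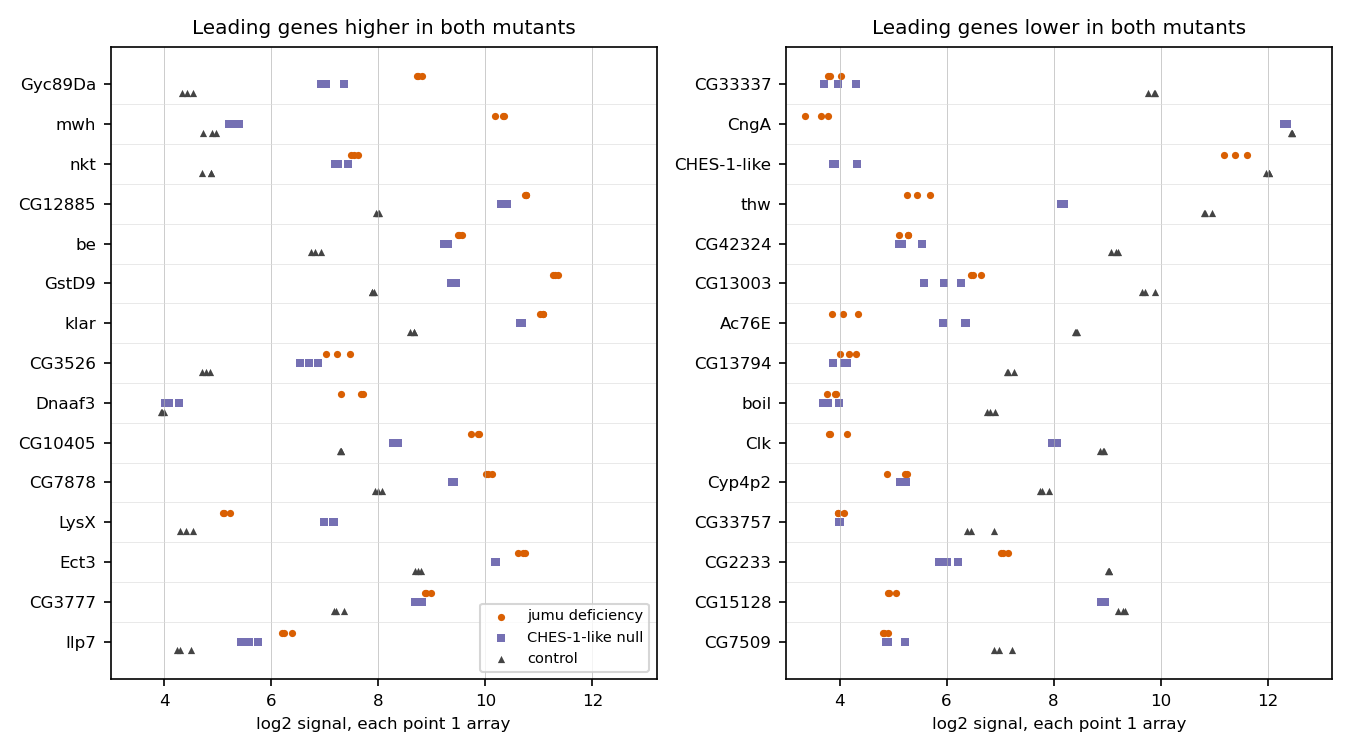
Each point is 1 array, at its log2 signal on the horizontal axis, for the 15 leading genes higher in both mutants and the 15 lower in both, with jumu deficiency arrays drawn above CHES-1-like null arrays and control arrays at the bottom of each row. In every row all 6 mutant arrays are on 1 side of the 3 control arrays, a condition of the rule that chose these rows, and CngA and Dnaaf3 show CHES-1-like null arrays close to control.

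The estimate of the difference between the mutants does not use the control arrays, although they enter the spread behind its p-value. The difference was tested for every gene, though a shared sign limits how far it can run at a given pooled change. Of the 7512 genes, 2152 (28.6%) differed between jumu deficiency and CHES-1-like null cells in the limma test, against 42.3% of all genes, where opposite signs are also counted. Among genes with a pooled change of at least 1, the mutants differed for 63 of the 67 higher ones, and the change was larger in jumu deficiency for 49 of these. They differed for 59 of the 90 lower ones, of which 43 had the larger change in jumu deficiency.

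Of the 30 leading genes, 22 differed between the mutants, 18 with the larger change in jumu deficiency and 4 with the larger change in CHES-1-like null cells, with CHES-1-like itself among the 4. The test did not separate the mutants for 8, namely CG33337, CG42324, CG13794, boil, Cyp4p2, CG33757, CG7509 and CG3777. For all of these except CG3777 both mutant means were under the background bound. A difference between the mutants could hardly show there, so an equal loss cannot be read from the test. For CG33757 the difference was 0.0092 with a 95% interval of -0.24 to 0.26, and for CG13794 it was 0.13 with an interval of -0.070 to 0.33. CG3777, the only leading higher gene in that set, had a difference of 0.17 (95% interval 0.026 to 0.31, limma adjusted p 0.0688). The largest called difference among the leading genes was that of CngA, -8.74 (95% interval -8.95 to -8.53, limma adjusted p 3.75e-11), and mwh differed by 4.97 (95% interval 4.80 to 5.15, limma adjusted p 3.03e-10).

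**Figure D3:**
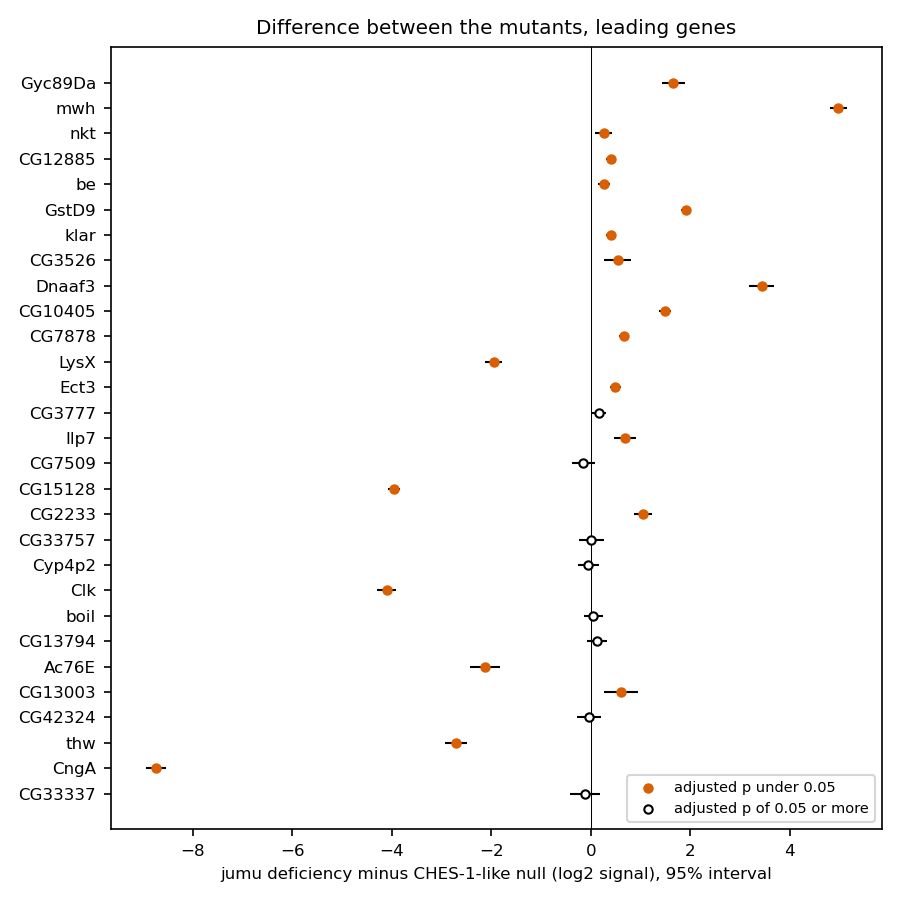
The horizontal axis gives the jumu deficiency mean minus the CHES-1-like null mean in log2 signal for 29 leading genes, CHES-1-like left out, as points with 95% intervals from limma. Filled points passed an adjusted p of 0.05 and open points did not. Of the 8 open points, all close to 0, 7 are genes that fell and had both mutant means under the background bound.

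The functions of the shared response were read from 38 gene lists, and each count below can be set beside the 13.3% of all genes that rose and the 15.8% that fell. Of 24 contractile and Z-disc genes of muscle measured, 16 fell and 1 rose, and the median pooled change was -0.415. Of the 16, 8 passed in each mutant by itself. The giant titin-like protein of the sarcomere, sls, read 10.88, 11.74 and 10.68 in jumu deficiency cells, 11.73, 11.73 and 11.62 in CHES-1-like null cells, and 12.41, 12.32 and 12.32 in control cells. Its jumu deficiency arrays were widely spread, its mutant arrays stayed below control, and the pooled change was -0.95 ± 0.19. Mlp60A, a muscle LIM protein, read 10.12, 10.06 and 10.10 in jumu deficiency cells, 10.09, 10.14 and 10.04 in CHES-1-like null cells, and 10.87, 10.78 and 10.81 in control cells. All mutant arrays were below control and the mutants differed by 0.0011 (95% interval -0.10 to 0.10). A further pair of sls probe sets had pooled changes of -1.02 and -0.65.

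Other contractile genes fell further in CHES-1-like null cells. The myosin alkali light chain gene Mlc1 changed by -0.38 in jumu deficiency and by -0.95 in CHES-1-like null cells, a difference of 0.57 (limma adjusted p 5.93e-06). Tropomyosin Tm2 changed by -0.13 in jumu deficiency and -0.91 in CHES-1-like null cells. The ubiquitin ligase gene tn had -0.94 ± 0.11 and the kinase gene Strn-Mlck had -0.78 ± 0.052, although 2 further Strn-Mlck probe sets had -0.208 and 0. Over the list, 15 genes differed between the mutants and 13 of them were higher in jumu deficiency. Zasp52, a PDZ and LIM protein of the Z-disc, was the gene that rose, with 8.33, 8.30 and 8.43 in jumu deficiency cells, 8.43, 8.56 and 8.26 in CHES-1-like null cells, and 7.87, 7.92 and 7.90 in control cells, and its mutant arrays were all above control.

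Of 17 genes for muscle founder cells and myoblast fusion, 8 fell and 2 rose, around a median of -0.049. Myoblast fusion builds an actin focus at the membrane of the joining cells. Vrp1, the partner of the actin regulator WASp, read 12.30, 12.15 and 12.22 in jumu deficiency cells, 12.06, 12.07 and 12.10 in CHES-1-like null cells, and 12.87, 12.83 and 12.83 in control cells. The mutants lay close together below control, with a pooled change of -0.69 ± 0.040. The adaptor gene rols, a founder cell gene, had -0.43 ± 0.034, blow had -0.62 ± 0.037 and the membrane protein gene sing had -0.41 ± 0.034. Hem and SCAR, parts of the complex that activates actin branching, were the genes that rose, with 0.22 ± 0.034 for Hem and 0.17 ± 0.036 for SCAR, whose call was lost with centred arrays. The fusion regulator lmd, a zinc finger factor of fusion-competent myoblasts, had -0.37 ± 0.031.

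Of 20 regulators of muscle identity, 1 fell, Ptx1 with -0.22 ± 0.038, and none rose at the limma threshold. The Ptx1 call was lost with the mean of its probe sets. Mean mesoderm marker signals were between 10.27 and 10.30 on jumu deficiency arrays, 10.12 and 10.13 on CHES-1-like null arrays and 10.25 and 10.30 on control arrays, and none of the 6 passed the rule and the threshold. In bulk RNA of sorted cells, fewer cells of a type and less RNA per cell cannot be told apart, and the part of the marker shift in the muscle lists was not tested.

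Glycolysis is the breakdown of glucose to pyruvate, and 8 of its 12 genes fell, 6 of them in each mutant by itself, while 1 rose, with a median pooled change of -0.378. Triosephosphate isomerase, Tpi, read 8.70, 8.67 and 8.73 in jumu deficiency cells, 7.77, 7.71 and 7.87 in CHES-1-like null cells, and 9.15, 9.07 and 9.07 in control cells. Both mutants were below control and CHES-1-like null cells were far the lower, with a mutant difference of 0.92 (95% interval 0.80 to 1.03, limma adjusted p 8.46e-07). Enolase, Eno, had -0.85 ± 0.032 and changed by -0.75 in jumu deficiency and -0.95 in CHES-1-like null cells. Phosphofructokinase, Pfk, had -0.77 ± 0.081, hexokinase Hex-A had -0.53 ± 0.048, Gapdh1 had -0.49 ± 0.043 and phosphoglycerate kinase, Pgk, had -0.45 ± 0.048. Pdk, a kinase that inhibits pyruvate dehydrogenase and so holds pyruvate back from the mitochondrion, was the gene that rose, with 0.18 ± 0.045, a call lost without control replicate 2 and with arrays centred on their medians. A second Pdk probe set of nearly equal signal lay on opposite sides of control, with -0.179 in jumu deficiency and 0.449 in CHES-1-like null cells. The mutants differed for 9 of the 12 genes, and 8 of these were higher in jumu deficiency.

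Ribosome biogenesis makes and processes ribosomal RNA in the nucleolus. Of 30 genes of ribosome biogenesis, 21 fell and none rose, with a median of -0.175, and 11 of the 21 passed in each mutant by itself. Polr1B, the second largest subunit of RNA polymerase I, read 10.30, 10.33 and 10.33 in jumu deficiency cells, 10.10, 10.05 and 9.98 in CHES-1-like null cells, and 10.81, 10.84 and 10.85 in control cells. Control arrays were the highest and CHES-1-like null arrays the lowest, without overlap, and the pooled change was -0.65 ± 0.037. The largest subunit, Polr1A, had -0.43 ± 0.031, and 5 of 6 RNA polymerase I subunits fell. The putative RNA helicase gene kz had -0.56 ± 0.054, the nucleolar GTPase gene Ns3 had -0.40 ± 0.034, and bor, an AAA ATPase counted in this list, had -0.56 ± 0.033. The mutants differed for 23 of the 30 genes, 22 of them higher in jumu deficiency, so the fall was mostly larger in CHES-1-like null cells.

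Of 70 genes for mitochondrial ribosomal proteins, 31 fell and 2 rose, with a median of -0.16, and 8 of the 31 passed in each mutant by itself. The median change was 0.018 in jumu deficiency and -0.335 in CHES-1-like null cells. The mutants differed for 62 of the 70, all higher in jumu deficiency. mRpL18 was the member with the largest pooled change, -0.48 ± 0.039, and mRpL33 was 1 of those that rose, with 0.39 ± 0.033. Of 76 genes of the respiratory chain and ATP synthase 16 fell and none rose, with ATPsynepsilonL at -0.99 ± 0.10 and COX4L at -0.66 ± 0.10, while 50 of the 51 that differed were higher in jumu deficiency.

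Of 34 cytosolic ribosomal protein genes 1 fell, RpS19b with -0.26 ± 0.056, and none rose. RpL27, which did not pass, had -0.080 ± 0.033 at a control mean of 14.3. Of 62 translation factors and tRNA synthetases 16 fell and 2 rose, led by the elongation factor eEF1alpha2 with -1.04 ± 0.092. Leaving out a control array changed that count of falls, to 8 without control replicate 1 and 9 without control replicate 2. Of 52 spliceosome and nuclear pore genes 14 fell and 1 rose, led by the splicing factor Sf3b3 with -0.31 ± 0.033. The cytosolic chaperonin CCT folds actin and tubulin, and 6 of its 8 subunits fell, CCT1 with -0.45 ± 0.035 and CCT5 with -0.36 ± 0.038. Among 29 heat shock and chaperone genes 10 fell and 3 rose, with the endoplasmic reticulum chaperone Hsc70-3 at 0.27 ± 0.036 on the higher side.

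**Figure D4:**
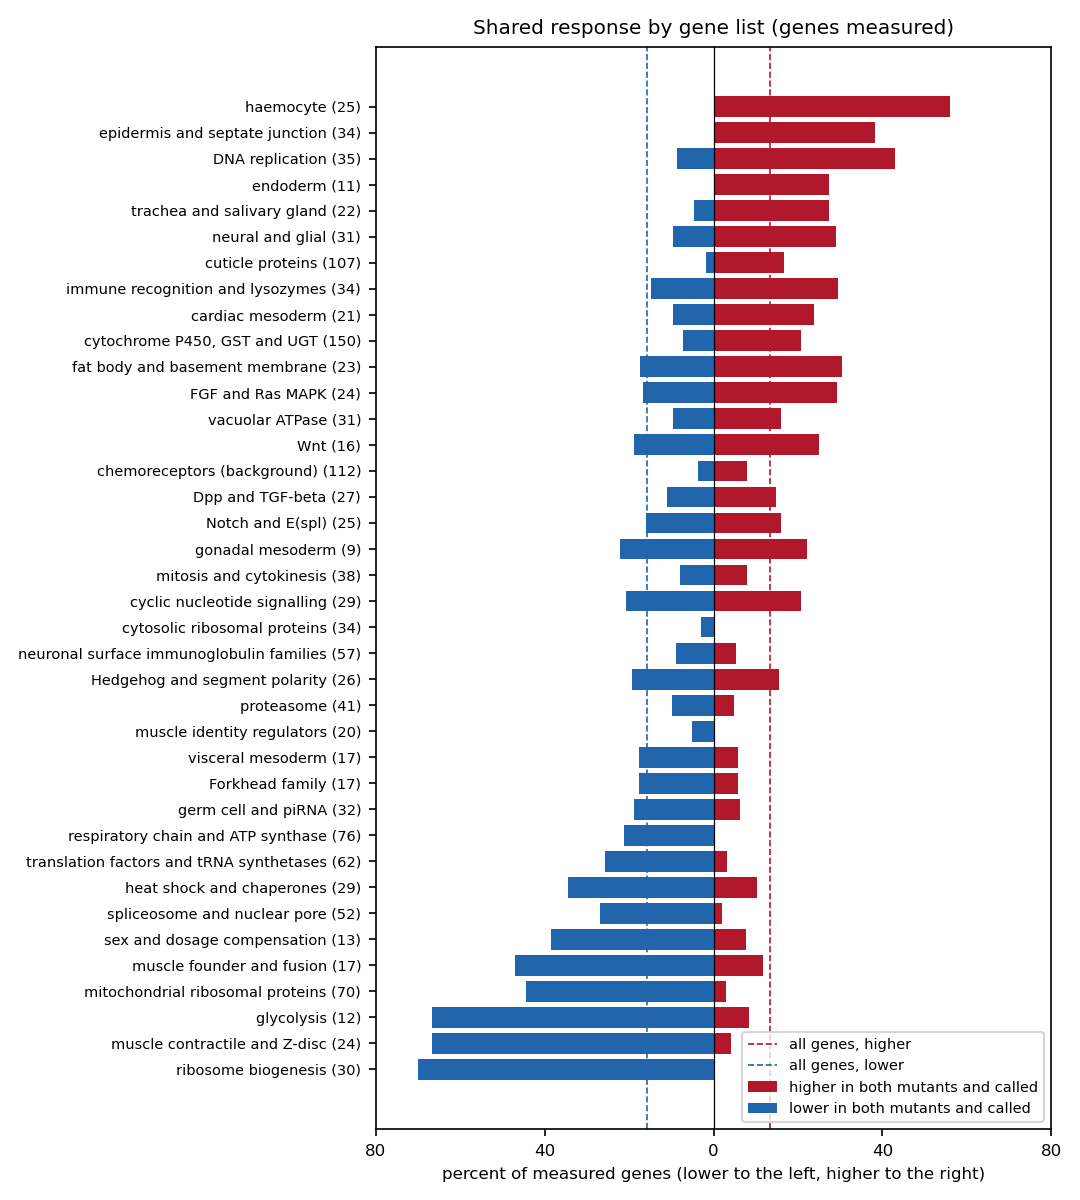
Bars give the percent of measured genes in each of 38 gene lists, whose size stands in parentheses, whose pooled change passed the threshold with both mutants above control (red, to the right) or below it (blue, to the left), ordered by the rise share minus the fall share. Dashed lines mark the 13.3% of all genes that rose and the 15.8% that fell, and ribosome biogenesis, contractile and glycolysis genes are lowest while haemocyte genes reach furthest right.

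Among lists with more rises than falls, 14 of 25 genes listed for haemocytes, the insect blood cells, rose and none fell, with a median pooled change of 0.22, and 10 of the 14 passed in each mutant by itself. Members of the Idgf family, secreted chitinase-like proteins, made up 6 of the 14, and all 6 Idgf genes measured rose. Idgf2 read 9.40, 9.40 and 9.42 in jumu deficiency cells, 9.33, 9.31 and 9.31 in CHES-1-like null cells, and 8.36, 8.30 and 8.24 in control cells. The mutant arrays lay close together and far above control, with a pooled change of 1.06 ± 0.037 and a mutant difference of 0.090 (95% interval -0.0052 to 0.19). Idgf6 read 11.35, 11.37 and 11.38 in jumu deficiency cells, 10.62, 10.58 and 10.64 in CHES-1-like null cells, and 10.14, 10.10 and 10.04 in control cells. Its jumu deficiency arrays were highest and control arrays lowest, and Idgf4 showed the same order with 0.65 ± 0.042. The Idgf3 and Idgf5 rises lay in jumu deficiency, since their CHES-1-like null arrays overlapped control, with changes there of 0.005 for Idgf3 and 0.0608 for Idgf5.

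The receptor tyrosine kinase gene Pvr, needed for blood cell survival and migration, read 11.46, 11.47 and 11.46 in jumu deficiency cells, 11.48, 11.44 and 11.51 in CHES-1-like null cells, and 10.92, 10.93 and 10.97 in control cells. All mutant arrays were above control, and the mutants differed by -0.015 (95% interval -0.10 to 0.072). The phagocytic receptor gene crq had 0.46 ± 0.075, and NimC1, another phagocytic receptor, had 1.02 ± 0.086, of which 1.89 was in jumu deficiency and 0.15 in CHES-1-like null cells, whose mean was under the background bound. Of the 16 listed genes that differed between the mutants, 14 were higher in jumu deficiency. The 8 haemocyte markers checked separately had mean log2 signals between 9.65 and 9.68 on jumu deficiency arrays, 9.21 and 9.26 on CHES-1-like null arrays and 9.32 and 9.34 on control arrays, and He was under the background bound in every group. Only 2 of these 8 markers rose, Pvr and NimC1, and no member among them fell. The prophenoloxidase genes PPO1 and PPO2, markers of crystal cells, are not members. PPO1 averaged 12.47 in jumu deficiency, 11.57 in CHES-1-like null and 12.42 in control cells, and PPO2 averaged 12.77 in jumu deficiency, 11.79 in CHES-1-like null and 12.65 in control cells. The peroxidasin gene Pxn did not pass, with a pooled change of -0.077. The part of blood cell number in the Idgf and receptor values was not tested.

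Basement membranes are sheets of matrix built on collagen IV. The collagen IV chain gene vkg read 12.43, 12.38 and 12.50 in jumu deficiency cells, 11.17, 11.15 and 11.28 in CHES-1-like null cells, and 10.85, 10.86 and 10.86 in control cells. The jumu deficiency arrays were far the highest, CHES-1-like null arrays lay above control, and the pooled change was 0.96 ± 0.042. Its partner chain Col4a1 had 0.73 ± 0.033 and the collagen-binding protein gene SPARC had 0.52 ± 0.037. The perlecan gene trol had 0.78 ± 0.061, of which 0.020 was in CHES-1-like null cells. Of 7 further trol probe sets, the brightest pair had 1.08 and 1.24 in jumu deficiency but -0.318 and -0.093 in CHES-1-like null cells, and the pooled changes of the other 5 lay between -0.157 and 0.182. Of 23 fat body and basement membrane genes 7 rose and 4 fell, and among those that fell were the lipid transfer protein gene Mtp with -0.70 ± 0.036 and the lysyl oxidase gene Loxl1 with -0.69 ± 0.073.

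Of 35 DNA replication genes 15 rose and 3 fell, with a median of 0.151, and 9 of the 15 passed in each mutant by itself. The list median was 0.033 in jumu deficiency and 0.275 in CHES-1-like null cells. The mutants differed for 26 of the 35, and 21 of these were higher in CHES-1-like null cells. All 3 subunits of RPA, the protein that coats single-stranded DNA, rose. RPA1 read 10.73, 10.70 and 10.73 in jumu deficiency cells, 10.82, 10.79 and 10.81 in CHES-1-like null cells, and 10.11, 10.04 and 10.03 in control cells. Every mutant array was above control, and the mutants differed by -0.088 (95% interval -0.18 to -0.00030, limma adjusted p 0.119). RPA3 had 0.57 ± 0.035. Of 5 subunits of the MCM helicase, which unwinds DNA at the fork, 3 rose, Mcm5 with 0.42 ± 0.033 and Mcm6 with 0.39 ± 0.032. The licensing factor gene dup had 0.39 ± 0.037, with 0.11 in jumu deficiency and 0.66 in CHES-1-like null cells. The 3 that fell were Psf3 with -0.26 ± 0.040, Dp with -0.22 ± 0.040 and E2f2 with -0.10 ± 0.031, whose call was lost on leaving out any of 7 arrays. With arrays centred on their medians the count of falls was 5.

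Of 38 mitosis genes measured 3 rose and 3 fell, the kinetochore gene Mis12 with 0.47 ± 0.075 and the anaphase-promoting complex activator fzr with -0.28 ± 0.046 being the largest of each. The mutants differed for 32 of the 38, and 31 of these were higher in CHES-1-like null cells, with a list median of -0.327 in jumu deficiency and 0.187 in CHES-1-like null cells.

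**Figure D5:**
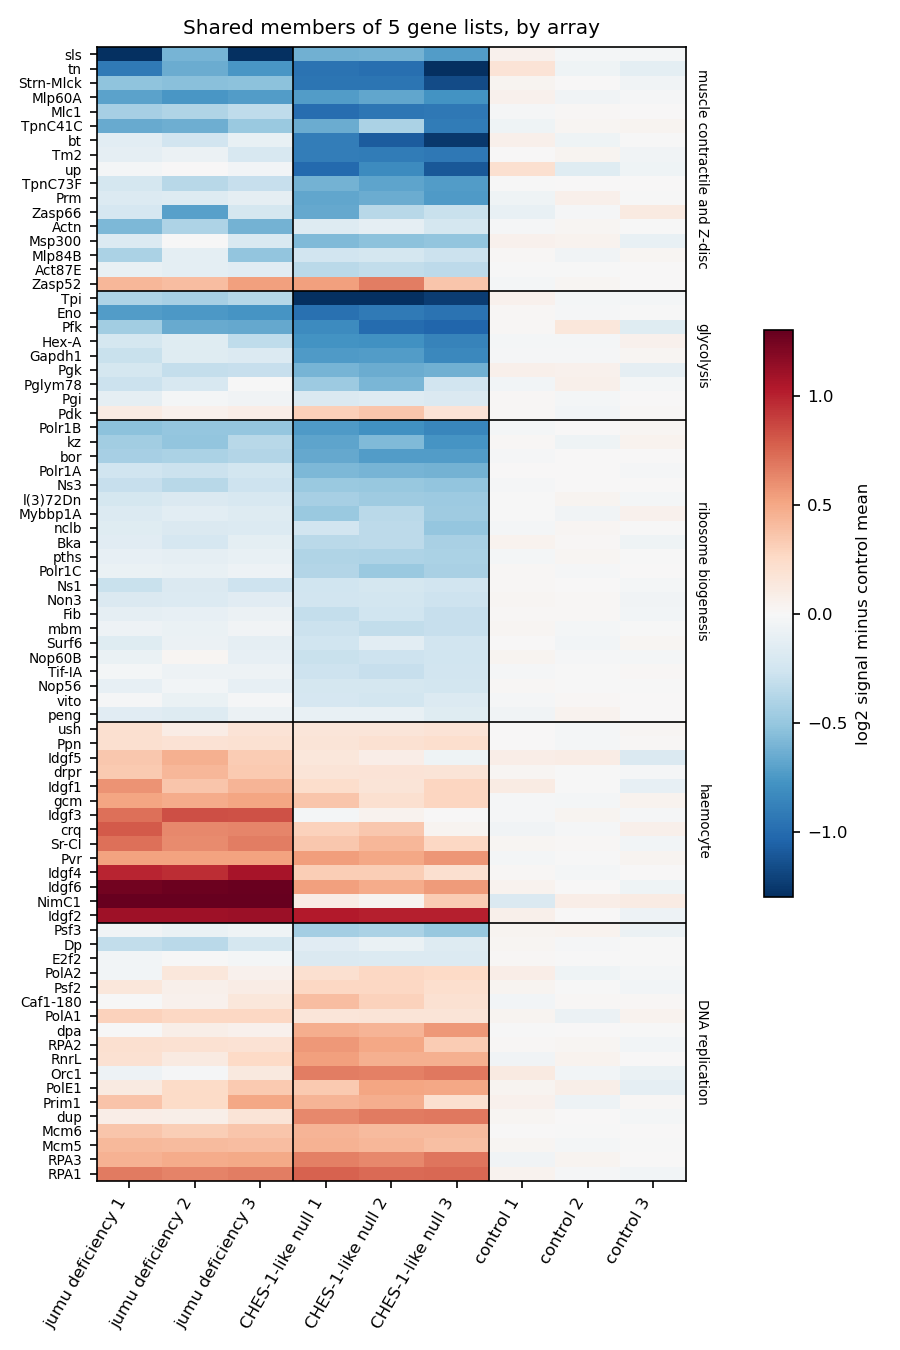
Rows are the genes of 5 lists whose pooled change passed the threshold with both mutants on the same side of control, columns are the 9 arrays, and colour gives the log2 signal minus the control mean, from blue (lower) to red (higher), with the strongest colour also used for values beyond the scale. The contractile, glycolysis and ribosome biogenesis rows are mostly blue and darker in the CHES-1-like null columns, haemocyte rows are mostly darker red in the jumu deficiency columns, with NimC1 beyond the scale there.

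Genes of tissues outside the mesoderm also appear among the members. Of 34 epidermis and septate junction genes 13 rose, 4 of them in each mutant by itself, and none fell, with a median pooled change of 0.239, and the list median was -0.046 in jumu deficiency and 0.456 in CHES-1-like null cells. The chitin deacetylase gene serp read 7.86, 7.89 and 7.83 in jumu deficiency cells, 8.42, 8.46 and 8.43 in CHES-1-like null cells, and 7.79, 7.70 and 7.72 in control cells. CHES-1-like null arrays were highest, and jumu deficiency arrays were just above control, with a mutant difference of -0.58 (95% interval -0.67 to -0.48, limma adjusted p 4.41e-06). Mean signals of 7 epidermis markers were between 8.67 and 8.70 on jumu deficiency arrays, 9.43 and 9.49 on CHES-1-like null arrays and 8.77 and 8.87 on control arrays, with none under the background bound. The polarity scaffold gene scrib had 0.37 ± 0.041, with 4 further probe sets between -0.044 and 0.242, the brightest of which lay at -0.065 in jumu deficiency and 0.548 in CHES-1-like null cells.

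Medians of the trachea and salivary gland list were -0.019 in jumu deficiency and 0.538 in CHES-1-like null cells. The mutants differed for 18 of its genes, 15 of them higher in CHES-1-like null cells. The list gave 6 rises and 1 fall among 22 genes. In it, btl, the FGF receptor that guides tracheal branching, read 8.73, 8.67 and 8.72 in jumu deficiency cells, 7.92, 7.87 and 7.77 in CHES-1-like null cells, and 6.97, 6.85 and 7.09 in control cells. The groups did not overlap and jumu deficiency was highest, with a pooled change of 1.31 ± 0.057 and a mutant difference of 0.85 (95% interval 0.70 to 1.00, limma adjusted p 7.64e-06). The orphan nuclear receptor gene knrl fell by 0.84, more in jumu deficiency (-1.36) than in CHES-1-like null cells (-0.31). Of 31 neural and glial genes 9 rose and 3 fell, among them gcm, the switch gene of glia and blood cells, with 0.39 ± 0.042, and jim, a zinc finger gene, with -0.82 ± 0.039. On opposite sides of control lay 19 of the 31, with list medians of -0.087 in jumu deficiency and 0.252 in CHES-1-like null cells. Of the 25 neural and glial genes that differed between the mutants, 21 were higher in CHES-1-like null cells. Of 11 endoderm genes 3 rose, the nuclear receptor gene Hnf4 with 0.31 ± 0.036, peb with 0.36 ± 0.039 and cad with 0.18 ± 0.053, and none fell, but the cad call was lost on leaving out any of 6 arrays. The endoderm list median was -0.142 in jumu deficiency and 0.278 in CHES-1-like null cells. All 9 endoderm genes that differed between the mutants were higher in CHES-1-like null cells. Neural marker means were 9.87 to 10.0 on jumu deficiency arrays, 10.28 to 10.36 on CHES-1-like null arrays and 10.15 to 10.19 on control arrays, and endoderm marker means were 8.29 to 8.38 on jumu deficiency, 8.69 to 8.80 on CHES-1-like null and 8.41 to 8.43 on control arrays. Tracheal marker means were 7.67 to 7.83 on jumu deficiency arrays, 8.16 to 8.41 on CHES-1-like null arrays and 7.69 to 7.85 on control arrays, and those of the salivary gland were 6.66 to 6.82 in jumu deficiency, 6.88 to 7.03 in CHES-1-like null and 6.54 to 6.63 in control cells. The part of such cells in these values was not tested.

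Each of the signalling lists held both rises and falls. In the FGF and Ras list of 24 genes, 7 rose and 4 fell. The ligand gene Krn, an EGF receptor ligand, had -0.48 ± 0.050. kek1, a transmembrane inhibitor of the EGF receptor, read 5.99, 6.04 and 5.76 in jumu deficiency cells, 5.72, 5.76 and 5.77 in CHES-1-like null cells, and 7.07, 7.26 and 7.29 in control cells. All mutant arrays were far below control, with a pooled change of -1.37 ± 0.070 and a mutant difference of 0.18 (95% interval -0.0063 to 0.36, limma adjusted p 0.133). The heparan sulphate sulphotransferase gene sfl, whose product modifies the co-receptors of FGF, had 0.48 ± 0.082. The mesodermal FGF receptor gene htl is not a member, with 0.53 in jumu deficiency and -0.32 in CHES-1-like null cells.

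In the Wnt list of 16 genes, 4 rose and 3 fell. The gene wls, whose product carries Wnt ligands to the cell surface, had 0.38 ± 0.035. The cell surface glypican gene dlp read 10.61, 10.52 and 10.61 in jumu deficiency cells, 10.66, 10.64 and 10.60 in CHES-1-like null cells, and 10.10, 10.07 and 10.05 in control cells. The mutants overlapped each other above control, with a pooled change of 0.53 ± 0.037 and a mutant difference of -0.054 (95% interval -0.15 to 0.042). The Wnt receptor gene drl had 0.36 ± 0.035, and ebd1, a nuclear partner of Armadillo, had -0.30 ± 0.037, nearly all of it in CHES-1-like null cells at -0.55.

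Of 26 Hedgehog and segment polarity genes, 4 rose and 5 fell. The acyltransferase gene rasp, needed to lipidate the ligand, had -0.64 ± 0.049. The receptor gene ptc, which is also a target of the pathway, read 6.88, 7.05 and 6.89 in jumu deficiency cells, 8.13, 8.24 and 8.10 in CHES-1-like null cells, and 8.63, 8.68 and 8.56 in control cells. Jumu deficiency arrays were lowest and control arrays highest, without overlap, and the mutants differed by -1.22 (95% interval -1.36 to -1.07, limma adjusted p 5.18e-07). The exostosin gene botv, a maker of heparan sulphate, had 0.59 ± 0.036, and the pair-rule repressor gene hry had -0.80 ± 0.050.

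In the Dpp and TGF-beta list of 27 genes, 4 rose and 3 fell. The protease gene tok, which processes ligands and matrix, had -0.62 ± 0.036. Of 25 Notch genes 4 rose and 4 fell, with the inhibitor numb at 0.42 ± 0.052, the gamma-secretase subunit gene pen-2 at 0.37 ± 0.048, the protease gene kuz at 0.26 ± 0.060 and spdo, a membrane partner of Notch, at -0.20 ± 0.046. All 16 Notch genes and all 13 Hedgehog genes that differed between the mutants were higher in CHES-1-like null cells.

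Of 21 cardiac mesoderm genes 5 rose and 2 fell, with a median of 0.101. The Dorsocross T-box genes, Doc1 to Doc3, act in cardiac specification, and all 3 rose, although the call for Doc2 (0.22 ± 0.051) was lost without control replicate 2. Doc3 read 8.49, 8.44 and 8.55 in jumu deficiency cells, 8.34, 8.35 and 8.42 in CHES-1-like null cells, and 8.03, 8.07 and 7.96 in control cells. Every mutant array was above control, and the pooled change was 0.41 ± 0.041. The GATA factor gene pnr had 0.33 ± 0.035, with 0.19 in jumu deficiency and 0.47 in CHES-1-like null cells. Lar, a receptor tyrosine phosphatase, fell, with -0.56 ± 0.036, and svp, an orphan nuclear receptor of a subset of heart cells, had -0.29 ± 0.080 with overlapping arrays, -0.0061 in jumu deficiency and no call on leaving out any control array. A dimmer svp probe set passed, with -0.47 in jumu deficiency and -0.50 in CHES-1-like null cells, and another, with a pooled change of -0.226, did not.

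Other mesodermal lists held few calls. Of 17 visceral mesoderm genes 1 rose and 3 fell, the homeobox gene bap with 0.50 ± 0.054, mostly in jumu deficiency (0.85), and the adhesion gene Con with -0.53 ± 0.060. The list median of 0.041 turned to -0.006 when arrays were centred on their medians. Of 9 gonadal mesoderm genes 2 rose and 2 fell. Here eya had 0.57 ± 0.067 while so, whose product acts with Eya, had -0.86 ± 0.057. The changes were 0.68 in jumu deficiency and 0.46 in CHES-1-like null cells for eya, and -0.78 in jumu deficiency and -0.94 in CHES-1-like null cells for so. Of 17 Forkhead family genes 1 rose, fd3F with 0.28 ± 0.067, and 3 fell, fd59A with -0.55 ± 0.12 at background in all groups, FoxL1 with -0.29 ± 0.077, and CHES-1-like. Leaving out control replicate 1 ended the calls of fd3F and FoxL1.

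Cyclic nucleotide signalling held 3 of the leading genes, CngA, Ac76E and Gyc89Da, with opposite signs. Of its 29 genes 6 rose and 6 fell. The calcium-dependent adenylyl cyclase gene rut had -0.53 ± 0.047, the anchoring protein gene rg had 0.58 ± 0.061, and CngB, the partner subunit of CngA, had -0.23 ± 0.065 at background in every group, a call lost without control replicate 1.

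The enzymes of detoxification measured here were 150 cytochrome P450, glutathione S-transferase and UDP-glycosyltransferase genes, of which 31 rose and 11 fell. In the GstD cluster 6 of 11 rose and 1 fell, and of 13 GstE genes 4 rose and none fell. GstD1 read 10.94, 10.87 and 10.93 in jumu deficiency cells, 10.29, 10.15 and 10.05 in CHES-1-like null cells, and 9.13, 9.26 and 9.21 in control cells. The groups did not overlap, jumu deficiency was highest, and the pooled change was 1.34 ± 0.055. Ugt302C1, a UDP-glycosyltransferase, read 5.73, 5.75 and 5.70 in jumu deficiency cells, 6.21, 6.27 and 6.04 in CHES-1-like null cells, and 8.01, 7.88 and 7.99 in control cells. It was lower in all mutant arrays. Without control replicate 2 the number that fell was 7.

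Of 34 immune recognition genes and lysozymes 10 rose and 5 fell. PGRP-LE, a sensor of bacterial peptidoglycan, had -1.81 ± 0.10, of which -0.085 was in jumu deficiency and -3.53 in CHES-1-like null cells. The Toll pathway proteases were divided, SPE with 0.92 ± 0.078 and grass with -0.81 ± 0.051. Of 107 cuticle protein genes, most of them dim, 18 rose and 2 fell, led by Cpr51A with 0.93 ± 0.072, and without control replicate 3 the rises numbered 10.

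Germ cell and piRNA genes gave 2 rises and 6 falls among 32. krimp, a Tudor protein of the piRNA pathway, read 4.63, 4.40 and 4.51 in jumu deficiency cells, 6.78, 6.56 and 6.43 in CHES-1-like null cells, and 7.27, 7.18 and 7.45 in control cells. It was lowest in jumu deficiency, with a mutant difference of -2.08 (95% interval -2.31 to -1.85, limma adjusted p 3.78e-07). The piRNA factor gene moon had -0.56 ± 0.079 and squ had 0.62 ± 0.042. Germ cell marker means were 5.44 to 5.58 on jumu deficiency arrays, 7.22 to 7.34 on CHES-1-like null arrays and 6.38 to 6.45 on control arrays, with vas under the background bound, and their part in the krimp value was not tested.

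Of 41 proteasome genes 2 rose and 4 fell, of 31 vacuolar ATPase genes 5 rose and 3 fell, and of 57 genes of neuronal surface immunoglobulin families 3 rose and 5 fell. Of 13 genes of sex determination and dosage compensation 1 rose and 5 fell, msl-1 with -0.29 ± 0.045 among them. Of 112 chemoreceptor genes 9 rose and 4 fell. The receptors Gr98b and Gr98d were above background in jumu deficiency cells only, and Gr98b had 5.40 there, with 0.016 in CHES-1-like null cells.

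Position in the genome was not used by the rule. Of the 156 members with a pooled change of at least 1 and a place in the Release 6 plus ISO1 MT annotation, 32 genes formed 21 pairs with at most 1 measured gene between them, and 18 pairs had the same direction. A longer row of neighbours counts as several pairs, so the pairs are not separate. The number expected for genes placed at random was not worked out, and no clustering is read from the counts. Cyp4p2 and Cyp4p1 are adjacent on arm 2R and both fell, Cyp4p1 by 1.78. The genes krimp, CG15708 and CngA lie in a row on 2R, and all had their larger change in jumu deficiency, CG15708 with -2.28 there and -0.25 in CHES-1-like null cells. LysX, Aplip1 and mwh lie in a row on 3L and all rose, Aplip1 with 1.36 ± 0.090. CG10182 lies next to CG33337 on 3R and fell, with -1.59 ± 0.053 and a mutant difference of 0.050 (95% interval -0.089 to 0.19). Both mutant means of CG10182 were under the background bound.

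GstD9 and GstD1 are neighbours on 3R, as are Ugt302E1 and Ugt302C1, where Ugt302E1 had -1.19 ± 0.082. On the small chromosome 4, CG31999 with -1.38 ± 0.047, yellow-h with -1.26 ± 0.17 and CG1674 with -1.04 ± 0.072 lie together and fell. Neighbouring members of a family can share probes, and this was not tested. Genes that fell made up 20.0% of 1873 genes on the X, 14.4% to 16.2% of those on 2L, 2R, 3L and 3R, and 23.1% of the 65 genes on chromosome 4, and genes that rose made up 12.0% to 15.4% of each arm.

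Genes with several probe sets allow the same measure to be read again, although not independently of the arrays. Of the 157 members with a pooled change of at least 1, 30 had further probe sets, 48 in all. Of these 48, 30 passed the threshold in the same direction with both mutants on that side. Counted separately, 31 of the 48 were above the background bound in mutants or control. For Hsc70-1, a heat shock cognate chaperone with -0.82 ± 0.068, 2 more probe sets had -1.24 and -0.752.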

How the data were processed

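The 9 arrays came as 1 table of log2 signals per probe set, deposited by the authors. The R package affy is named for them per the submitters' processing notes, with version, background correction and summary method not given in the sources used here. The nearly equal array medians are those of values normalized to each other. After removal of 183 array control probe sets from the 18952 in the table, the other 18769 entered the fit. The platform annotation paired 13647 of them with exactly 1 gene. A further 402 had more than 1 gene and 4720 had no entry, and neither kind is named. For 13544 probe sets the symbol is that of Release 6 plus ISO1 MT, an annotation that served only for names and the order of neighbours. Each of the 11982 genes is represented by its probe set of highest mean. Each group's mean was estimated in 1 limma fit (limma 3.58.1, R 4.3.3) over all 9 arrays, with 6 residual degrees of freedom and Benjamini-Hochberg adjustment over all probe sets, and the fit was tested on simulated data. The members, gene lists and alternatives were chosen with earlier results of these data known. The text names the targeted genes. It also gives the 15 highest and 15 lowest pooled changes among members without array overlap and with a higher side above the background bound. From each list up to 4 members of largest change are named, again only where mutant and control arrays do not overlap. CG10182, CG31999, CG15708, yellow-h, Ugt302E1, CG1674, Mlc1, rut, Tm2, Gapdh1, Pgk, Ns3, svp, Psf3, RpS19b, CngB, Dp, E2f2, htl, SCAR, Pdk, Doc2, Hem, Hsc70-3, fd3F, dup, crq, Zasp52, SPARC, trol, NimC1, Gr98d, GstD1, Aplip1, Gr98b, Nach, He, PPO1, PPO2, Pxn, Idgf3, Idgf5, vas and the genes at the edge of the rule were chosen for naming after their values had been seen. The alternatives tried were other scalings, a filter on dim probe sets, the replicate block, other estimates of the spread, array weights, stricter thresholds, the mean of a gene's probe sets and leaving out each array.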

Additional observations from a re-analysis of the deposited data

Results flagged for a closer look

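The size of the shared response differed between the mutants for 2152 genes, which passed an adjusted p of 0.05 in the limma test of jumu deficiency minus CHES-1-like null cells. Among the control probe sets of the array, which no gene comparison above uses, the actin 3' signal exceeded the 5' signal by 1.256 ± 0.035 log2 units in jumu deficiency, 0.939 ± 0.065 in CHES-1-like null and 1.04 ± 0.010 in control cells (SD, n = 3 each). The same 3' excess was 1.35 ± 0.034 in jumu deficiency, 1.15 ± 0.052 in CHES-1-like null and 1.07 ± 0.072 in control cells for eIF-4a. For GAPDH it was smaller and more widely spread, with 0.42 ± 0.16 in jumu deficiency, 0.081 ± 0.25 in CHES-1-like null and 0.34 ± 0.09 in control cells. The bacterial hybridisation controls had a mean log2 signal of 9.99 ± 0.069 in jumu deficiency, 9.87 ± 0.10 in CHES-1-like null and 9.74 ± 0.15 in control cells (SD). They were thus higher on average in both mutants, and their part in the changes above was not tested. A further signal lay in 5122 probe sets without a single gene name, of which 2448 were higher and 1079 lower in both mutants, 404 and 314 of these past the threshold. The highest pooled change among them was 4.311, with 4.68 in jumu deficiency and 3.95 in CHES-1-like null cells, and 44 had a pooled change of at least 1.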

How the results depend on the processing

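Members higher in both mutants numbered 2448, and those lower in both 2572, of the 8406 genes left without the dim 40% of probe sets, where fewer genes enter. Centring each array on its median left 976 called rises; with deposited values and a threshold of 0.01 there were 1008. A minimum change of 1.5-fold left 201 rises, 295 falls and 341 differences between the mutants among members. Leaving out 1 array at a time gave 3992 to 4333 members higher and 3176 to 3368 lower, 1203 to 1575 called rises, 1561 to 1851 called falls and 1800 to 2024 mutant differences. With the replicate number as a block the counts were 1429, 1759 and 1954. Deviations of same-numbered arrays correlated between -0.136 and 0.15, and those of unlike numbers between -0.249 and 0.211. Pairing by number was not seen in these values, though 3 arrays per group cannot exclude it. Of 3591 values of 200 named genes under these alternatives none reversed, 200 lost the call and 14 gained it, 102 of the losses under the minimum change. Of 1216 list counts 1101 stayed within 1.5 times; causes were not tested. Signals near background limit what dim genes can show, and 3 arrays per group limit the precision.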

Other observations

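Some members of lists given above only by counts are described here. The odorant receptor gene Or71a read 7.44, 7.36 and 7.64 in jumu deficiency cells, 7.63, 7.59 and 7.49 in CHES-1-like null cells, and 8.26, 8.13 and 8.29 in control cells, so that all mutant arrays lay below control, and the mutants differed by -0.092 (95% interval -0.27 to 0.083, limma adjusted p 0.431). The gustatory receptor genes Gr93b and Gr93c had -0.63 ± 0.088 for Gr93b and -0.67 ± 0.060 for Gr93c, the second with all group means under the background bound, and the mutants differed for Gr93c by -0.29 (limma adjusted p 0.0086). The immunoglobulin-family gene beat-IIb had -0.81 ± 0.048, with -0.60 in jumu deficiency and -1.02 in CHES-1-like null cells, a difference of 0.42 (limma adjusted p 0.000246).

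Subunits of the vacuolar proton pump and the proteasome moved by less. The pump subunit gene Vha16-1 had 0.20 ± 0.038, with a second probe set at 0.007 in jumu deficiency and 0.305 in CHES-1-like null cells, VhaAC39-1 had 0.19 ± 0.035 and VhaAC45RP had -0.43 ± 0.046. The proteasome subunit gene Prosbeta7 had 0.27 ± 0.036, and Rpn11, the deubiquitinase of the proteasome lid, had -0.16 ± 0.036. Among genes of sex determination, dsx had -0.39 ± 0.10 with all group means under the background bound, a call lost without control replicate 1 or 2.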
